A study of Mus musculus with 12 samples.

Results

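The tubulins, kinesins and dyneins are the subunits of microtubules and the motor proteins that move along them. They were taken as all genes with a probe set of their own on the array whose symbol begins with Tuba, Tubb, Tubg, Kif and a digit, Dync or Dynl, and each gene was read by the probe set of highest mean intensity. This gave 70 of the 18194 genes measured: 13 alpha and beta tubulin genes (1 of them the pseudogene Tubb2a-ps2), 7 gamma tubulins and gamma tubulin complex proteins, 13 dynein chains and 37 kinesins. A further 11 probe sets that the annotation gives to several genes, at least 1 of them of these families, were set aside; 6 of them name alpha tubulins (among them all probe sets of Tuba1b, Tuba1c and Tuba3a), 1 a beta tubulin, 3 Dynlt1 light chains and 1 Kif27.

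Gene expression was measured on 12 Affymetrix arrays of gastrocnemius, a large muscle of the calf. Each array held the RNA of 1 male mouse, of generation 37 of lines selected for voluntary wheel running, at a mean age of 84 days (79 to 86). The 6 mini-muscle arrays came from line 3, in which a heritable trait reduces hindlimb muscle mass, and hold RNA pooled from the left and right muscle of each animal. The 6 regular-muscle arrays came from line 8, whose muscles have the usual size, and hold RNA of 1 limb per animal. Both lines had been bred for running, no unselected line is among the arrays, each group is a single line, and phenotype, line and limb pooling cannot be told apart. The transcripts of muscle fibres that define the tissue were abundant in both groups, with mean log2 intensities of 17.27 and 17.35 for skeletal actin, Acta1, and 17.24 and 17.38 for muscle creatine kinase, Ckm, in mini-muscle and regular muscle. Myh4, the heavy chain of the fastest fibres, was lower in mini-muscle (16.04 ± 0.38, SD, against 17.37 ± 0.14).

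Microtubules are hollow polymers of alpha and beta tubulin pairs, and gamma tubulin complexes start their growth. Kinesins mostly carry cargo towards the plus end, cytoplasmic dynein carries it towards the minus end, and a further set of kinesins works in cell division. A muscle fibre does not divide, and its microtubules form a lattice beneath the membrane and around the many nuclei and Golgi elements, on which nuclei, mitochondria and membrane vesicles are placed.

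Of the 70 genes, 35 had a mean log2 intensity of at least 8.56, the median of all genes, and were tested; the other 35 were dimmer and are described only. Values are log2 MAS5 intensities, a difference is the mini-muscle mean less the regular-muscle mean, given with its standard error (SE), n was 6 arrays per group, and a gene was called at an adjusted p under 0.05 (limma, Benjamini-Hochberg over all 9097 genes tested). In mini-muscle 10 of the 35 rose and 6 fell, so that 45.7% were called, where 26.7% of all tested genes were. The 10 that rose make 28.6% of the members tested (14.9% of all genes), and the 6 that fell make 17.1% (11.8% of all genes). The median difference was 0.14 for the members and 0.03 for all genes, and the median size of the difference, without sign, was 0.33 and 0.22. For 8 members (22.9%) the arrays of the groups did not overlap, as for 13.0% of all genes; 5 of the 8 were higher (6.86% of all genes) and 3 lower (6.11%). Of the called members 62.5% were higher, and of all called genes 55.9%. With arrays centred on their medians 8 members rose and 2 fell, so that the share was 80.0% (60.3% of all called genes). A change of at least 1.5-fold was called for 4 of 35 members, close to the 11.0% of all genes. The Gapdh 3′ over 5′ control ratio of the arrays, a sign of RNA integrity, also differed slightly. It was -0.19 to -0.09 (log2) in mini-muscle and -0.24 to -0.15 in regular muscle (two-sided exact permutation test, p = 0.013). The beta-actin control ratio did not pass, at -0.76 to 0.02 and -0.61 to 0.02 (exact permutation test, p = 0.24). Its mean was lower in mini-muscle (-0.47 against -0.27), whereas that of Gapdh was higher (-0.13 against -0.21). The part of RNA integrity in the results was not tested. In whole muscle, fewer cells of a type and less RNA per cell cannot be told apart.

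**Figure D1:**
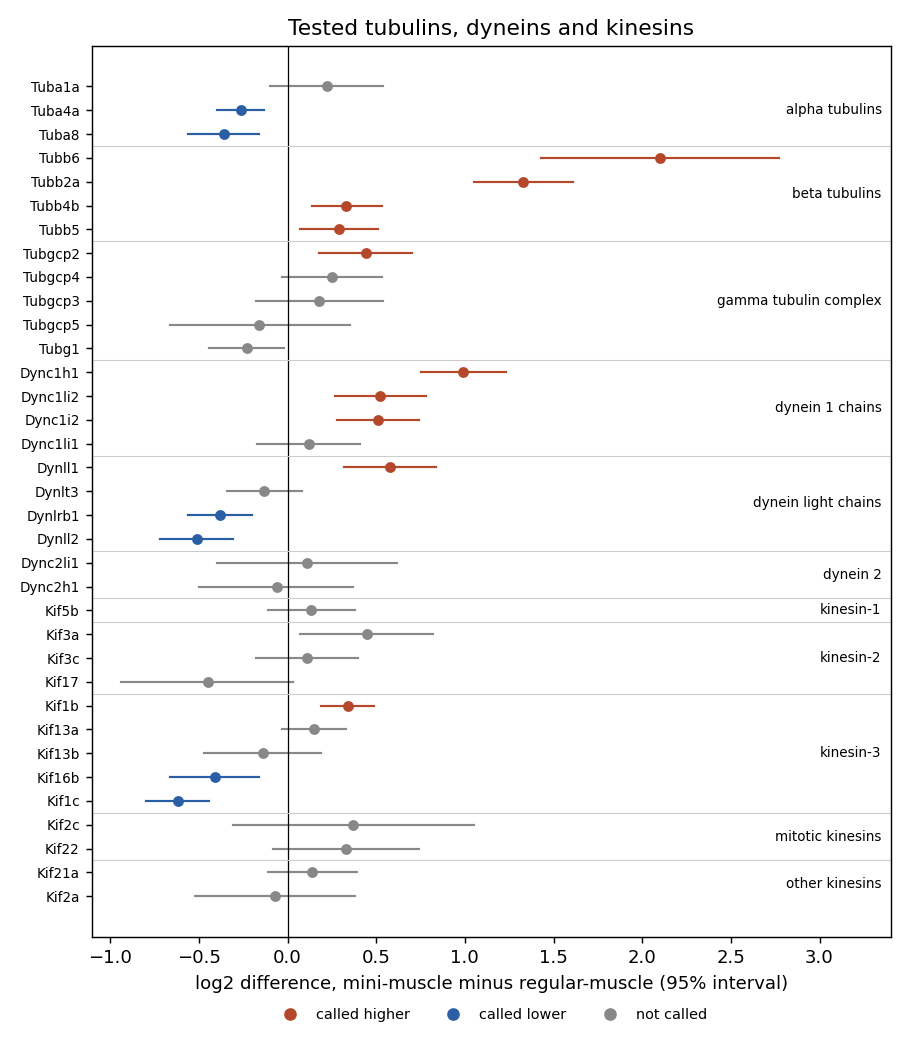
Log2 difference (mini-muscle minus regular-muscle, horizontal axis) of the 35 tested tubulins, dyneins and kinesins, with 95% intervals of the limma fit, grouped by role and coloured by call. All 4 tested beta tubulins lie to the right of 0, Tuba4a and Tuba8 to the left, and the dynein light chains and kinesin-3 motors on both sides.

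The proximal promoters of 7 genes that carry the main contrasts are given for reference. Tubb2a and Tubb4b are beta tubulins that rose, Tuba4a and Tuba8 alpha tubulins that fell, and Dync1h1 the dynein heavy chain that rose. Kif1b and Kif1c are related motors that went opposite ways at their brightest probe sets. The fall of Kif1c was not called with the mean of all its probe sets. Each promoter is the 250 bases before the RefSeq transcript start (build GRCm38.p6), read 5′ to 3′ on the gene's strand. Capitals mark matches on either strand to the CCAAT box (its letters), the GC box GGGCGG, the TATA box TATAAA, the E-box CAGCTG or the core of the NRF1 site, and no matches overlap in these windows.
Tubb2a (chr13:34078009-34078258, minus strand): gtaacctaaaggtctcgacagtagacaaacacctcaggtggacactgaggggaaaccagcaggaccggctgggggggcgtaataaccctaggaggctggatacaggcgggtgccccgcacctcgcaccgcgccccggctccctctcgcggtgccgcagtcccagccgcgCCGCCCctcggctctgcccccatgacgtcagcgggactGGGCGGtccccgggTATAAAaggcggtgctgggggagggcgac
Tubb4b (chr2:25224703-25224952, minus strand): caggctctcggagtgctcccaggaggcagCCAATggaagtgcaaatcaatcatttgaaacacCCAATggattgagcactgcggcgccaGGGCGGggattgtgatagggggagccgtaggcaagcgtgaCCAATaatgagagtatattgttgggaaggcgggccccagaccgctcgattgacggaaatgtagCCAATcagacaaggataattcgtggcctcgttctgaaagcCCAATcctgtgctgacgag
Tuba4a (chr1:75219295-75219544, minus strand): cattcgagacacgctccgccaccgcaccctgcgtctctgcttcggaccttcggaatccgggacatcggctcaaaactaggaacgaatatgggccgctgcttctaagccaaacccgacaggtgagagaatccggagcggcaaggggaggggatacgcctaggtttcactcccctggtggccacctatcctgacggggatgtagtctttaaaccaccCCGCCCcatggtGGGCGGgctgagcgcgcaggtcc
Tuba8 (chr6:121210484-121210733, plus strand): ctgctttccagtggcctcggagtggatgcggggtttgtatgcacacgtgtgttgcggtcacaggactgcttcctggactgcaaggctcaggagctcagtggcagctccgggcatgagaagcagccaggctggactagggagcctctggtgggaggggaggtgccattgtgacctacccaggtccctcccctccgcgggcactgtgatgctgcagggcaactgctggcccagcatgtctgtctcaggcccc
Kif1b (chr4:149307734-149307983, minus strand): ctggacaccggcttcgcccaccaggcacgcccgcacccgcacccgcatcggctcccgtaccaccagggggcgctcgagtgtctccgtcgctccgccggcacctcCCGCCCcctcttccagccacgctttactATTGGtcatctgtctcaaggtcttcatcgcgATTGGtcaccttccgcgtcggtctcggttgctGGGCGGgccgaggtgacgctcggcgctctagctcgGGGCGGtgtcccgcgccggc
Kif1c (chr11:70700298-70700547, plus strand): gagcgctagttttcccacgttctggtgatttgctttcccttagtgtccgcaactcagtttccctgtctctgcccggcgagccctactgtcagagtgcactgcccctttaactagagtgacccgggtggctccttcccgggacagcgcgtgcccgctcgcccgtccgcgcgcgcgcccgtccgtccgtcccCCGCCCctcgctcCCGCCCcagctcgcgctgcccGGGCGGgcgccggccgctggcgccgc
Dync1h1 (chr12:110601145-110601394, plus strand): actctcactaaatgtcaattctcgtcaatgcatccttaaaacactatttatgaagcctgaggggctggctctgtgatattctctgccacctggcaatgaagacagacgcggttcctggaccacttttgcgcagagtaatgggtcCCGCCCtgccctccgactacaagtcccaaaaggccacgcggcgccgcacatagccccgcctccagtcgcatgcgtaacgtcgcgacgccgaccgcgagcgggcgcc

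Of the 70 genes, 56 had an entry in the RefSeq promoter table, and 7 of the 10 that rose and 5 of the 6 that fell were among those searched; where a gene had several starts, the one listed first was used. CCAAT stood in 4 of the 7 windows of genes that rose (Tubb4b, Tubb5, Dynll1 and Kif1b) and in 0 of the 5 of genes that fell, against 34.5% of 27025 promoters of the same length. Tubb4b alone held 5 matches. The direction of Tubb5, counted as risen, and of Kif16b, counted as fallen, depended on the choice of probe sets, so these groups are not fixed. GGGCGG stood in 5 of 7 and 4 of 5 (32.9% of all), TATAAA in 1 of 7, in Tubb2a, and 0 of 5 (13.0%), CAGCTG in 0 of 7 and 1 of 5, in Kif16b (12.8%), and the NRF1 core in 0 of 7 and 0 of 5 (3.86%). These are counts of letters in short windows and say nothing of whether a factor binds there.

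Among the alpha and beta tubulins, Tubb2a, Tubb4b and Tubb6 rose in mini-muscle and Tuba4a and Tuba8 fell. Of 9 beta tubulin genes 4 were bright enough to test (Tubb2a, Tubb4b, Tubb5 and Tubb6), and 4 were called higher, where 14.9% of all genes were; the call of Tubb5 stood at the threshold and its direction is not settled. Of 4 alpha tubulin genes with a probe set of their own 3 were tested, 2 were called lower (11.8% of all genes), and Tuba1a did not pass; the alpha tubulins read only by shared probe sets are not counted. The log2 difference ran from -0.36 for Tuba8 to 2.10 for Tubb6.

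Tubb6, a divergent beta tubulin that is raised in regenerating and dystrophic mouse muscle, had the largest difference of the tested members. Its log2 intensity was 10.58 at the lowest, 11.24 at the median and 11.51 at the highest of the mini-muscle arrays, and 7.93, 9.21 and 10.14 in regular muscle. Every mini-muscle array lay above every regular-muscle array, and the regular-muscle arrays were widely spread, with replicates 1, 2 and 6 at 7.93 to 8.77 and replicates 3, 4 and 5 at 9.65 to 10.14. The difference was 2.10 (SE 0.32, 4.29-fold, adjusted p = 8.5e-05, limma). Regular-muscle replicates 1 and 2, at 7.93 and 8.1, lay below the intensity limit of 8.56, so the size of the change is uncertain. A dimmer second probe set, below the limit for testing, showed 0.0034 (SE 0.28), and the mean of both gave 1.05. The summed intensity of 6 markers of satellite cells and regenerating fibres was 4998 to 8770 in mini-muscle and 2854 to 3729 in regular muscle. Of the 4 tested, Myog rose by 1.99 and Myh3 by 1.52, while Myod1 (0.46, adjusted p = 0.077) and Myh8 (0.42, adjusted p = 0.46) did not pass. Myh3 reached the limit of 8.56 only through its mini-muscle arrays (mean 9.76, against 8.24 in regular muscle), so its rise is weaker evidence. The remaining markers, Pax7 and Myf5, were too dim to be tested and differed by -0.67 and 0.96. The part of these markers in the Tubb6 result was not tested. Summed fibroblast markers (6 genes) were lower, at 18259 to 33252 against 35255 to 54053, and 4 of 6 fell. Summed macrophage markers (6 genes) were 3832 to 5626 against 5069 to 8139, and 3 of 5 tested fell. Over all tested genes 14.9% rose and 11.8% fell, the shares to set beside these marker counts.

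Tubb2a, a beta tubulin best known from neurons, was 2.51-fold higher. Its arrays ran from 10.19 over a median of 10.40 to 10.56 in mini-muscle and from 8.86 over 9.00 to 9.32 in regular muscle, without overlap (difference 1.33, SE 0.13, adjusted p = 8.5e-07, limma). Its probe set is of the _s class, which can match related transcripts, and the only other probe set of Tubb2a was dim (0.68, SE 0.63). The close relative Tubb2b, too dim to be tested, differed by 0.66 (SE 0.29).

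Tubb4b, a broadly expressed beta tubulin that also builds cilia, rose modestly. The arrays lay at 13.79, 14.07 and 14.29 (lowest, median, highest) in mini-muscle and at 13.54, 13.70 and 13.95 in regular muscle, so that the groups overlapped (difference 0.33, SE 0.09, adjusted p = 0.011). Its other 2 probe sets above the limit gave 0.36 and 0.14, and the call was lost with arrays centred on their medians (difference 0.34, adjusted p = 0.078) and with the mean of all probe sets (0.32, adjusted p = 0.36). Tubb5, the constitutive beta tubulin of most tissues, stood at the threshold, with 11.27, 11.50 and 11.71 against 11.05, 11.16 and 11.44 (difference 0.29, SE 0.10, adjusted p = 0.049). Its second probe set gave -0.16, and the call was lost in 9 of 12 fits without 1 array and in 6 of 9 other settings.

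Tuba4a, the alpha tubulin whose gene does not encode the terminal tyrosine and is abundant in muscle, fell slightly. Its arrays lay at 15.99, 16.12 and 16.25 in mini-muscle and at 16.25, 16.35 and 16.56 in regular muscle, so that the groups met at a single value (difference -0.26, SE 0.07, adjusted p = 0.0058). Its 2 other probe sets gave -0.25 and -0.41. Tuba8, an alpha tubulin enriched in striated muscle and testis, lay at 12.63, 12.97 and 13.17 in mini-muscle and at 13.09, 13.27 and 13.49 in regular muscle (difference -0.36, SE 0.09, adjusted p = 0.0080), and -0.26 at its second probe set. Both calls were lost with arrays centred on their medians (adjusted p = 0.12 and 0.075), with differences of -0.25 and -0.35. Tuba1a, an alpha tubulin of developing neurons, is read by a probe set of the _x class, which can match other transcripts. It differed by 0.22 (95% interval -0.10 to 0.54), and its regular-muscle arrays ranged from 11.79 to 13.02.

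**Figure D2:**
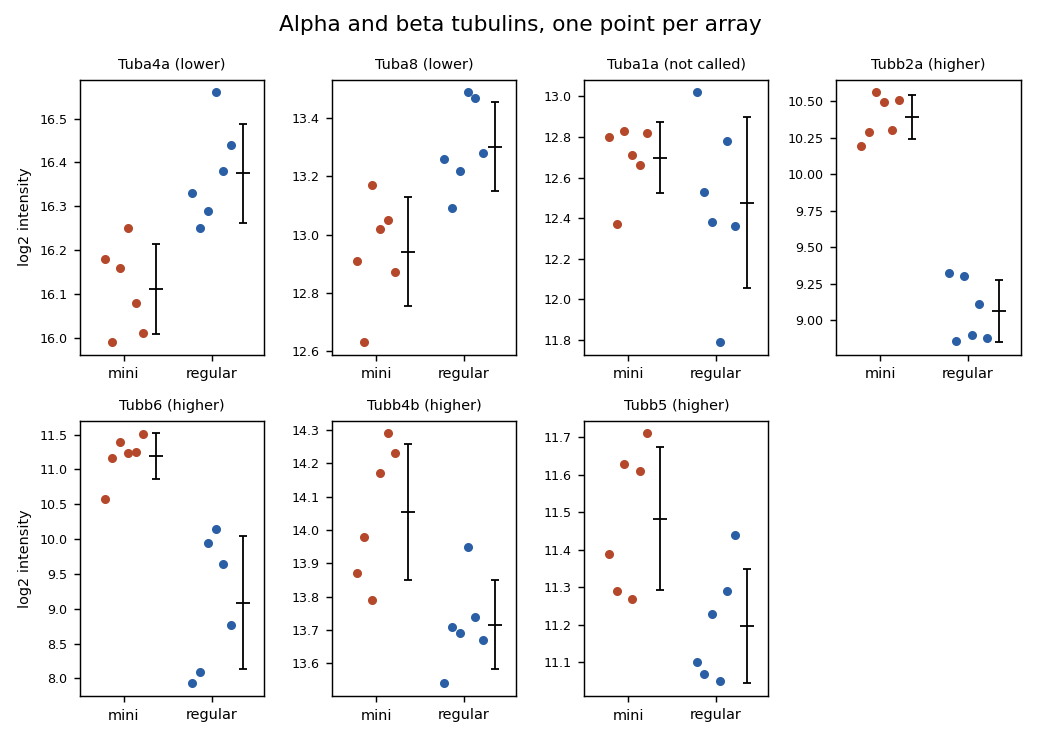
Log2 intensity of the 7 tested alpha and beta tubulins, 1 point per array, with the mean and SD of each group of 6 as a black bar; each panel has its own scale. Tubb2a and Tubb6 separate the groups without overlap, and the regular-muscle arrays of Tubb6 range from 7.93 to 10.14.

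The 5 tubulin genes too dim to be tested besides Tubb2b were Tuba3b, Tubb1, Tubb2a-ps2, Tubb3 and Tubb4a. Tubb3, the neuronal marker tubulin, had array values of 3.16 to 5.21 in mini-muscle and 3.07 to 7.20 in regular muscle, and the 5 neuron markers were all below the dim limit too. Tubb1, the platelet tubulin, differed by -0.27 (SE 0.34), beside platelet markers summing to 1733 to 2376 in mini-muscle and 1990 to 2863 in regular muscle.

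Among the genes that start microtubule growth, Tubgcp2, a subunit of the gamma tubulin small complex, rose, and the other 4 tested did not pass. Tubgcp2 lay at 10.49, 10.84 and 10.97 in mini-muscle and at 10.04, 10.43 and 10.66 in regular muscle (difference 0.44, SE 0.12, 1.36-fold, adjusted p = 0.011). Only mini-muscle replicate 6 lay within the regular-muscle range. Tubg1, gamma tubulin itself, lay at 10.32 to 10.52 against 10.50 to 10.84 (difference -0.23, 95% interval -0.44 to -0.02, adjusted p = 0.11). The remaining ring subunits Tubgcp3, Tubgcp4 and Tubgcp5 differed by 0.18, 0.25 and -0.16, and Tubg2 and Tubgcp6 were too dim.

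Cytoplasmic dynein 1, the main minus-end motor of the cell, showed higher chains of the motor itself. Of its 4 tested heavy, intermediate and light intermediate chains, 3 rose and 0 fell (14.9% and 11.8% of all tested genes). Dync1h1, the heavy chain that hydrolyses ATP and walks, was 1.99-fold higher: the arrays lay at 12.54, 12.71 and 12.99 in mini-muscle and at 11.43, 11.75 and 12.13 in regular muscle, without overlap (difference 0.99, SE 0.12, adjusted p = 4.9e-06). Its second probe set, dim, gave 1.07 (SE 0.66). Dync1i2, the widely expressed intermediate chain that joins the heavy chain to cargo and to dynactin, lay at 11.73, 12.12 and 12.39 against 11.41, 11.56 and 11.87 (difference 0.51, SE 0.11, adjusted p = 0.0017); mini-muscle replicate 4 alone fell into the regular-muscle range.

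The light intermediate chains, which bind the adaptors that activate dynein, differed in size of change. Dync1li2 rose, with 11.27, 11.40 and 11.64 against 10.62, 10.82 and 11.29 (difference 0.52, SE 0.12, adjusted p = 0.0034), and its second probe set gave 0.36. Dync1li1 differed by 0.12 (95% interval -0.17 to 0.41). The unequal change of this pair, -0.40 (95% interval -0.77 to -0.04), passed narrowly (two-sided exact permutation test, adjusted p = 0.045 over 7 pairs) and was lost in 8 of 12 cases without 1 array.

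Dync1i1, the intermediate chain best known from neurons, had the largest difference of all 70 genes but was too dim to be tested with the others. Its mini-muscle arrays lay at 8.04 to 9.01 and its regular-muscle arrays at 4.20 to 8.07, with replicate 1 at 8.07 and replicates 2, 3 and 5 at 4.20 to 4.64. In the fit over all 18194 genes without the intensity limit the difference was 2.74 (SE 0.63, adjusted p = 0.0056), in which 12.1% of genes were called. Intensities that low have no reliable size of change, and the gene is read by a single probe set.

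The light chains of dynein went both ways. Dynll1, an LC8 light chain that also binds many partners outside dynein, rose, with 12.91, 13.32 and 13.62 against 12.39, 12.69 and 13.18 (difference 0.58, SE 0.12, 1.49-fold, adjusted p = 0.0017). Its 2 other probe sets above the limit gave 0.72 and 0.55, and a dim one gave -0.31; with the mean of all 4 the difference was 0.39 and was not called (adjusted p = 0.19). The sister chain Dynll2, found also on myosin V, fell at its brightest probe set, with 13.43, 13.71 and 14.13 against 14.16, 14.27 and 14.38 and no overlap (difference -0.51, SE 0.10, adjusted p = 7.4e-04). Its second probe set, which is not of the _s class, gave 0.30 (SE 0.10) and was called higher when such probe sets were preferred (adjusted p = 0.036), so that the direction of Dynll2 is not settled. Dynlrb1, the roadblock light chain, fell without overlap, at 12.58, 12.84 and 13.09 against 13.13, 13.17 and 13.40 (difference -0.38, SE 0.09, adjusted p = 0.0028), and is read by a single probe set, of the _s class; its call was lost with centred arrays (difference -0.37, adjusted p = 0.068). Dynlt3, a Tctex-type light chain, differed by -0.13 (95% interval -0.34 to 0.08). Dynlrb2 and Dynlt1f were too dim, and Dynlt1f belongs to a family of near-identical copies.

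Dynein 2, the motor of cilia, did not pass: Dync2h1, its heavy chain, differed by -0.06 (95% interval -0.50 to 0.37) and Dync2li1 by 0.11 (-0.40 to 0.62). The changes of Dync1h1 and Dync2h1 were unequal by 1.06 (95% interval 0.64 to 1.48), without overlap of the arrays (exact permutation test, adjusted p = 0.0030, where 0.0022 is the smallest unadjusted p that 924 assignments allow).

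**Figure D3:**
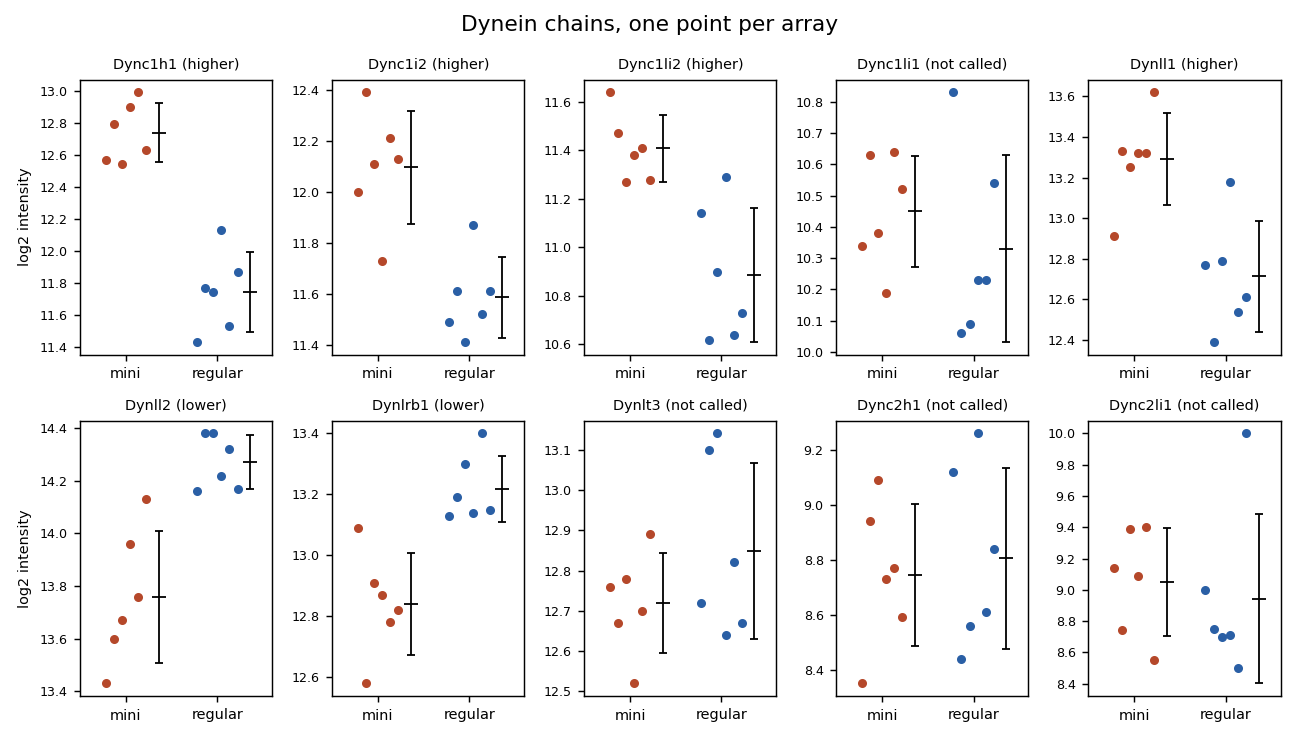
Log2 intensity of the 10 tested dynein chains, 1 point per array, with the mean and SD of each group of 6 as a black bar; each panel has its own scale. Dync1h1 is higher on all mini-muscle arrays, Dynll2 and Dynlrb1 are lower on all of them, and the dynein 2 chains Dync2h1 and Dync2li1 overlap.

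Of 37 kinesins 13 were tested, of which 1 rose and 2 fell (23.1% called, against 26.7% of all genes). All 3 belong to the kinesin-3 family of fast cargo motors, of which 5 of 7 genes were tested. Kif1b, which carries mitochondria and synaptic vesicle precursors, rose. It lay at 14.06, 14.15 and 14.18 in mini-muscle and at 13.64, 13.77 and 14.02 in regular muscle, without overlap (difference 0.34, SE 0.07, 1.26-fold, adjusted p = 0.0015). Its 6 other probe sets above the limit ran from -0.05 to 0.75.

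Kif1c, a motor of vesicles and integrins, was 1.54-fold lower at its brightest probe set, with 12.82, 13.00 and 13.28 against 13.54, 13.62 and 13.78 (difference -0.62, SE 0.09, adjusted p = 3.1e-05). The groups did not overlap there. Its 3 other probe sets gave 0.014, 0.10 and -0.29, however, and with the mean of all probe sets the difference was -0.20 (adjusted p = 0.28). The changes of Kif1b and Kif1c were unequal by 0.96 (95% interval 0.71 to 1.21, exact permutation test, adjusted p = 0.0030), and still by 0.49 with the mean of the probe sets above the limit (adjusted p = 0.0061). For Dynll1 and Dynll2 the corresponding values were 1.09 (95% interval 0.78 to 1.41, adjusted p = 0.0030) and 0.72 (adjusted p = 0.0061).

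Kif16b, which moves early endosomes, fell, with 11.36, 11.63 and 11.86 against 11.71, 12.03 and 12.29 (difference -0.41, SE 0.12, adjusted p = 0.015). Its second probe set gave -0.39, another, dim one gave 1.68, and the mean of all 3 gave 0.29. The call was lost in 3 of 9 other settings. The family members Kif13a and Kif13b differed by 0.15 and -0.14 and did not pass.

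Kif5b, the main kinesin-1 heavy chain outside neurons, which places nuclei and mitochondria in mouse muscle fibres, differed by 0.13 at its brightest probe set (95% interval -0.11 to 0.38). It lay at 12.03 to 12.59 in mini-muscle and at 11.85 to 12.40 in regular muscle. A second probe set was 0.59 higher without overlap of the arrays (adjusted p = 7.1e-04 over all single-gene probe sets), and 3 more above the limit gave 0.016, 0.13 and 0.70. Kif21a, a motor that restrains microtubule growth, likewise differed by 0.14 at its brightest probe set and by 0.61 at the next (adjusted p = 0.0064). The neuronal kinesin-1 chains Kif5a and Kif5c were too dim, at differences of -0.75 and 1.15 with SE of 0.51 and 0.43.

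In kinesin-2, which builds cilia and carries vesicles, Kif3a had array values of 8.98 to 9.68 and 8.36 to 8.98, which met to 2 decimals without overlapping, and did not pass (difference 0.45, 95% interval 0.07 to 0.82, adjusted p = 0.074). Kif3c differed by 0.11 and Kif17 by -0.45 (95% interval -0.94 to 0.03), while Kif3b was too dim. Kif17, with a mean of 8.60, was the tested member nearest to the intensity limit, and Kif18b, at 8.55, was the nearest below it.

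**Figure D4:**
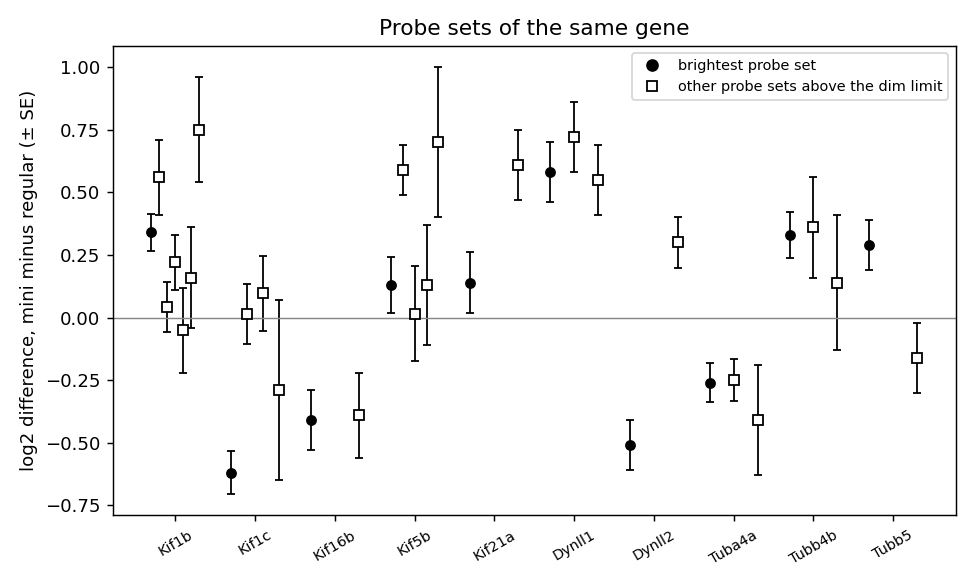
Log2 difference (mini-muscle minus regular-muscle) with its SE for every probe set above the dim limit of 10 genes read by several; filled circles are the brightest probe sets, which carry the reported values. The probe sets of Dynll1 and Tuba4a lie together, whereas those of Kif1b, Kif1c, Dynll2 and Tubb5 lie on both sides of 0 (Kif1b down to -0.05).

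Most kinesins of cell division were below the intensity limit. Of 11, only Kif22, which pushes chromosome arms, and Kif2c, which takes microtubules apart at the centromere, could be tested. They differed by 0.33 (95% interval -0.08 to 0.74) and 0.37 (-0.31 to 1.05). Kif11, the motor that separates the spindle poles, had array values of 7.27 to 8.53 in mini-muscle and 4.35 to 7.56 in regular muscle (difference 1.57, SE 0.58, adjusted p = 0.092 without the intensity limit), and Kif4, of chromosome condensation, 7.40 to 9.30 and 6.69 to 8.50 (0.93, SE 0.39). The other 7 of this class, namely Kif14, Kif15, Kif18a, Kif18b, Kif20a, Kif20b and Kif23, ranged from -1.13 to 1.08. The 11 measured markers of proliferating cells summed to 1959 to 2766 in mini-muscle and 1584 to 2373 in regular muscle, and 0 of the 2 tested were called. Kif2a, a depolymerising kinesin not counted here among the kinesins of cell division, differed by -0.07. The remaining kinesins, Kif1a, Kif28, Kif2b, Kif6, Kif7, Kif9, Kif12, Kif21b, Kif24, Kif26a, Kif26b and Kif27, were all too dim to be tested.

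Over the 35 untested members the differences ran from -1.20 for Kif28 to 2.74 for Dync1i1, with a median SD within groups of 0.99 in mini-muscle and 0.87 in regular muscle, against 0.20 and 0.23 for the tested members. The groups overlapped for all 35 of them, and 1, Dync1i1, had an adjusted p under 0.05 in the fit without the limit. Of the 19 tested members that did not pass, 13 had a 95% interval at the brightest probe set that excluded a 1.5-fold change in either direction. These include Kif5b and Kif21a, which differed by 0.59 and 0.61 at another probe set above the limit, so the intervals do not cover all probe sets.

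**Figure D5:**
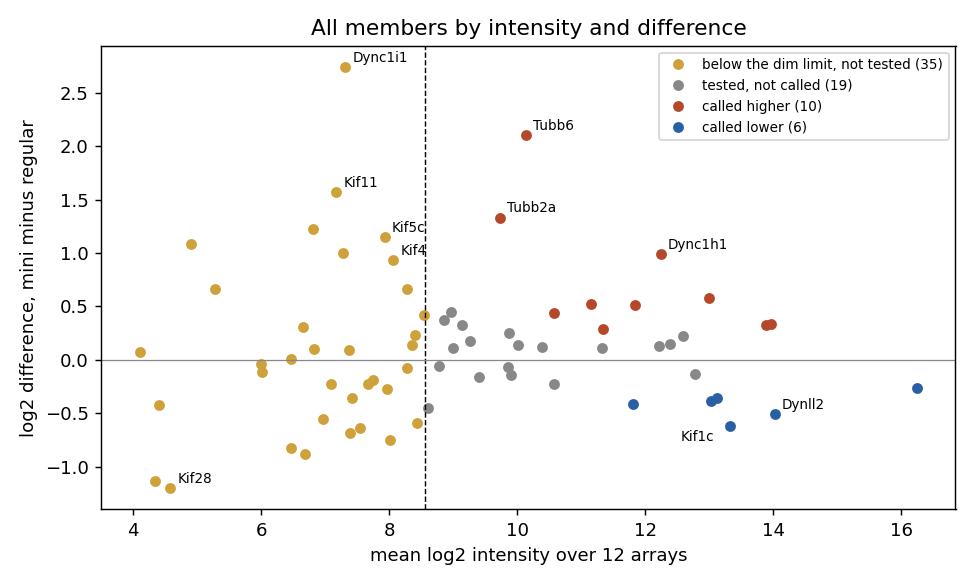
Mean log2 intensity over the 12 arrays (horizontal) against the log2 difference, mini-muscle minus regular-muscle (vertical), for all 70 members; the dashed line is the dim limit of 8.56. To its left lie the 35 untested members with widely scattered differences, including Dync1i1 at 2.74, and to its right Tubb6 at 2.10 and Tubb2a at 1.33 stand above the rest.

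Other genes of the microtubule system, in 8 lists taken from textbook knowledge, had 27 of 94 tested genes higher and 9 lower (38.3% called, against 26.7% of all genes; median difference 0.13). With probe sets averaged per gene 14 of 89 were called, or 15.7%, which is not above the 17.0% of all genes; for the members the share was then 27.8%. Over all tested genes 14.9% were higher and 11.8% lower, the shares to set beside the counts of each list. Apart from Atat1, the genes named from a list are up to 2, those called with the smallest adjusted p. Microtubule associated proteins had 9 of 22 higher and 0 lower (40.9% called, median 0.24). Map4, the main such protein of muscle, rose by 0.76 (SE 0.09, adjusted p = 3.2e-06) and Macf1, which links microtubules to actin, by 0.74 (SE 0.10). In dynactin, the partner complex of dynein, 3 of 10 rose and 2 fell. Dctn2, the dynamitin subunit, rose by 0.46, and Capza2, a subunit that also caps actin filaments, fell by 0.67. Of 12 tested dynein regulators and cargo adaptors 3 rose and 1 fell (33.3% called). Rab11fip3 (0.93), an adaptor of recycling endosomes, and Hook1 (-0.64) led these.

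Enzymes that modify tubulin had 3 of 13 higher and 1 lower (30.8% called, near the 26.7% of all genes). The one that fell, Ttll7, which adds glutamate chains to beta tubulin, showed the smallest adjusted p of the 8 lists, at 11.39 ± 0.26 in mini-muscle and 12.80 ± 0.16 in regular muscle (SD; difference -1.40, SE 0.11, adjusted p = 1.0e-07). Ttll12 rose by 0.95 (SE 0.23). Atat1, which acetylates alpha tubulin and was named after its values were seen, was too dim to be tested but did not overlap between the groups (1.85, SE 0.38). Among centrosome and gamma tubulin ring proteins 3 of 9 rose and 3 fell (66.7% called). Akap6, which anchors centrosomal proteins at the nuclear envelope of muscle cells, rose by 0.48 and Pcm1, a centriolar satellite protein, fell by 0.64. Of 21 genes of tubulin folding 5 rose and 2 fell (33.3% called). Cct4 of the CCT chaperonin differed by 0.34 and Vbp1 of prefoldin by -0.54. Of 3 destabilizers tested the severing enzyme Katna1 rose by 0.32, and of 4 kinesin light chains and related kinesins 0 were called.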

How the data were processed

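The authors deposited 1 linear intensity per probe set and array. The submitters' processing notes name MAS5, without a version or settings. MAS5 summarises each probe set on each array separately, and in the deposited intensities every array had the same mean, 800.0, after leaving out 2% of probe sets at either end. Arrays have no sequencing depth, so the number of arrays limits the precision. Group and line come from the labels, the replicate numbers only name the arrays, and Pearson correlations between arrays were 0.852 to 0.879 within and 0.839 to 0.870 between groups over all 45101 probe sets, with 0 identical pairs.

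Intensities were taken to log2 with no offset and no further normalization. The platform annotation named 1 gene for 34958 probe sets, and a gene was tested only if its mean reached 8.56, the median over genes. Groups were compared with limma 3.58.1 in R 4.3.3 (lmFit, eBayes with intensity trend, two-sided, Benjamini-Hochberg over 9097 genes), and adjusted p-values are from that fit unless another test is named. Pairs of related genes, 7 of 18 listed with both above the limit, were compared with an exact permutation test of the per-array log2 difference. In data simulated for this comparison with 200 of 9097 genes changed, 52% of 1.5-fold and 89% of 2-fold changes were called, with 6 unchanged genes among 147 calls. In the real data 26.7% of genes were called, far more than were changed in the simulation, so the simulated rates need not hold there.

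The members, the lists and the rule for named genes were chosen with earlier results of these data known. By that rule every member was named, with array values for each called one. From each list up to 2 genes were named, those called with the smallest adjusted p, so they are not typical of their lists. The choice and averaging of probe sets, the normalization, offset, filters and left-out arrays were varied as alternatives. Promoter sequences are RefSeq's, and the 12 marker lists of other cell types were used as summed intensities.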

Additional observations from a re-analysis of the deposited data

Results flagged for a closer look

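Among 70 groups of 6 arrays (35 tested members), 8 had an array far from the others by Dixon's criterion (the gap to the nearest array over the whole range, at its 95% critical value), where chance gives about 1 in 20. Of the called members this touched Tubb6, whose lowest mini-muscle array was replicate 1 at 10.58, next to 11.17; without it the difference was still called. For members that were not called, regular-muscle replicate 4 was lowest for Kif2a (9.07, next 9.92) and for Kif2c (7.07, next 8.55), and regular-muscle replicate 1 was highest for Tubgcp3 (9.63, next 9.19) and lowest for Tubgcp4 (9.34, next 9.76). Regular-muscle replicate 6 was highest for Dync2li1 (10.0, next 9.0). Mini-muscle replicate 2 was highest for Kif3a (9.68, next 9.20) and lowest for Tuba1a (12.37, next 12.66).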

How the results depend on the processing

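Against 10 members that rose and 6 that fell as reported, 7 to 10 rose in the 9 other settings, and 9 to 10 rose and 6 fell in the 12 fits without 1 array. The members behind these counts were not always the same. With probe sets of no shared-match suffix preferred, the 9 that rose include Dynll2, reported as fallen. Tubb2a was bright enough to test in only 7 of the 9 other settings. The calls over the 8 lists were 36 as reported and 32 to 39 without 1 array. The count of members that fell was 2 with arrays centred on their medians, 3 with the mean of all probe sets and 4 with probe sets of no shared-match suffix preferred. With centred arrays 18.0% of all genes, 28.6% of the members and 24.5% of the list genes (23) were called; with the mean of all probe sets the shares were 17.0%, 27.8% and 15.7% (14). In fits without 1 array, 183 of 192 refits of the 16 called members kept call and direction, and the 9 that did not were all of Tubb5 (0.24 to 0.34). In the other settings 124 of 142 did, 15 lost the call and 3 reversed, namely Dynll2 (0.30) and Tubb5 (-0.16) with probe sets of no shared-match suffix preferred, and Kif16b (0.29) with the mean of all probe sets. Kif3a alone of the members not called passed in 1 setting, without the intensity trend (adjusted p = 0.024). Pair changes passed for 5 to 6 of 7 pairs without 1 array and for 6 with quantile normalization or with the mean of the probe sets above the limit, the latter added after the data were seen. The causes were not tested. No paired analysis was made, because the groups hold different animals of different lines and the labels name no pairs. Dim intensities limit what can be said of the 35 untested members.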

Other observations

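The remaining marker lists of cell types were as follows, as the intensity summed over each list. Beside the counts of called markers stand the shares over all tested genes, 14.9% higher and 11.8% lower. Schwann cell markers ranged from 6969 to 19699 in mini-muscle and from 7138 to 19466 in regular muscle, and 0 of 3 tested were called. Endothelial markers ranged from 5996 to 8438 and from 5187 to 8207, with 1 of 6 higher. Adipocyte markers ranged from 1954 to 4120 and from 3184 to 5871, with 1 of 2 lower. Markers of ciliated cells, 721 to 1382 and 628 to 1258, and of erythrocytes, 71.2 to 420 and 71.6 to 674, held no gene bright enough to be tested. Skeletal muscle markers (6 genes) were lower on every mini-muscle array, at 741450 to 853246 against 909500 to 1115542 in regular muscle. Of these 6 markers 0 rose and 3 fell, and of 3 platelet markers tested 1 fell.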
